A study of Mus musculus with 15 samples.

Results

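A set of 10 genes known as markers of mesothelium was followed here across kidney and lung out of the 56748 genes listed in the deposited table. They are Msln, Lrrn4, Muc16, Upk3b, Upk1b, Gpm6a, Bnc1, Rspo1, Aldh1a2 and Pkhd1l1, each found once in the table by its symbol. The 10 genes were chosen by their names as mesothelial genes and from the read counts of the same 5 groups described below, with the fold changes in view, so their values are a description and not independent evidence. Msln (mesothelin) and Muc16 (a membrane mucin that binds mesothelin) are surface proteins, Upk3b and Upk1b are uroplakin-family membrane proteins, and Lrrn4, Gpm6a and Pkhd1l1 are further membrane proteins. Bnc1 is a zinc finger transcription factor, Rspo1 is a secreted ligand that strengthens Wnt signaling, and Aldh1a2 makes retinoic acid from retinaldehyde.

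The mesothelium is the thin epithelial layer that covers the lung as visceral pleura and lines the abdominal cavity. It secretes the lubricating fluid of these surfaces, and in the embryo it gives rise to some fibroblasts and smooth muscle cells of the organs it covers. Retinoic acid made by Aldh1a2 is a well known product of embryonic mesothelium. The kidney lies behind the peritoneum and has little mesothelium, while its pelvis is lined by urothelium, which makes uroplakins too.

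RNA was sequenced from 15 libraries, 3 in each of 5 groups. All came from wild-type (WT) male C57Bl/6 mice. WTK kidneys came from mice given vehicle, and their sample titles name no antibody. IgGK and LepK kidneys came from mice given a single injection of folic acid at 200 mg/kg, which crystallizes in tubules and injures the kidney, followed by control IgG (IgGK) or the leptin-neutralizing antibody LepAb (LepK) every other day. The kidney mice were 10 to 12 weeks old and were euthanized at day 28. IgGL and LepL lungs came from mice given 1.5 units/kg of bleomycin, a DNA-damaging drug that scars the lung, into the trachea, followed by the same 2 antibodies. The lung mice were 12 weeks old and were euthanized at day 14. By the study's text, antibody injections ended before the day of euthanasia in the kidney mice and ran up to it in the lung mice. The antibody dose was 10 mg/kg in the lung, and in the kidney it is the dose that the study's text selected after a series of doses. No lung from a mouse without bleomycin and no uninjured mouse given LepAb was analysed here. All libraries carry the same batch date in the labels. The study's text gives 3 mice per group for the lung and n = 3 per group for the kidney. The labels do not say whether libraries came from separate mice, so for the kidney p-values may not measure the spread between mice.

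Levels within an organ are given as normalised read counts, written CPM, that is read counts relative to the total of the library after edgeR's TMM scaling. Total counts were 25913969 to 38924788 per library, so that 1 count equalled 0.0257 to 0.0386 CPM. A gene was called where its absolute log2 fold change was over 0.5 and its Benjamini-Hochberg adjusted p over all genes tested was under 0.05 by edgeR's quasi-likelihood test. In bulk tissue, fewer mesothelial cells and less RNA per mesothelial cell cannot be told apart. The IgGK libraries were not alike in tissue makeup. The summed level of 8 adrenal cortex markers was 19.5 CPM in one of them, and 523 and 648 CPM in the others, against 6.87 to 8.89 CPM in WTK and 8.98 to 11.5 CPM in LepK.

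RefSeq promoter entries (build GRCm38.p6) were found for 7 of the 10 genes, and not for Msln, Upk1b and Pkhd1l1. Of the 7 genes that were higher in LepL than in IgGL lungs, 3 have their 250 bases before the annotated start shown here, since they cover a uroplakin-family gene, a Wnt ligand and an enzyme, and differ in base composition and in the motifs they hold. Each is read 5′ to 3′ on the strand of the gene. Upk3b lies at chr5:136038246-136038495 on the plus strand, Rspo1 at chr4:124986180-124986429 on the plus strand and Aldh1a2 at chr9:71215539-71215788 on the plus strand. Capitals mark the letters of a searched motif on either strand.
Upk3b: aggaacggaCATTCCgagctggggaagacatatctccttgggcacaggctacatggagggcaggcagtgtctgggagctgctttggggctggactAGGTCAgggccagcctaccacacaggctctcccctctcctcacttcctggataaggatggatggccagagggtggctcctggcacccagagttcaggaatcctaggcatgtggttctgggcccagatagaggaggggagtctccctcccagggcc
Rspo1: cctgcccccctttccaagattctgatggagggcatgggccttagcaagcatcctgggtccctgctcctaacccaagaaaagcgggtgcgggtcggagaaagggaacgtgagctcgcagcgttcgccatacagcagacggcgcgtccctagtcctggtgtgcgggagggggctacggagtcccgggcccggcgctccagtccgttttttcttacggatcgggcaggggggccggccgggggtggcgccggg
Aldh1a2: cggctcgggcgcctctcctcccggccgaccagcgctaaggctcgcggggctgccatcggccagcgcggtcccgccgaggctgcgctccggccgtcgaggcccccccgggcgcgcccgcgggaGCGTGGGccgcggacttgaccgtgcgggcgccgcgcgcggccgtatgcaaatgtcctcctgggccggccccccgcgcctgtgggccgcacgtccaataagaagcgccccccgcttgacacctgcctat

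Short motifs, 4 in all, were searched on both strands, and no match in these windows overlapped another. GGAATG, the core bound by TEAD family factors, was found upstream of Lrrn4, Upk3b and Gpm6a, and in 12.6% of all 32851 promoters of the table. AGGTCA, the core of nuclear receptor elements, was found upstream of Lrrn4 and Upk3b, and in 14% of all promoters. The TATA box letters TATAAA were found in 1 of the 2 entries of Gpm6a and in 12.4% of all promoters, and GCGTGGG, read by WT1 and EGR family factors, upstream of Aldh1a2 and in 4.3% of all promoters. None of the 4 was found in the windows of Rspo1, Muc16 or Bnc1. The share of G and C was 60.8% upstream of Upk3b, 66.8% upstream of Rspo1 and 77.6% upstream of Aldh1a2, against a median of 52.4% over all promoters. These matches are a description of letters in a window and not of binding.

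The comparison of LepL with IgGL asks what the antibody changed in bleomycin-injured lungs. All 10 genes passed the filter on low counts there, and 7 were called higher in LepL, 0 lower. Over all 19617 genes tested, 1.78% were called higher and 2.36% lower. The members' median log2 fold change was 0.99, against 0.0033 over all genes. The 7 were Upk3b, Muc16, Pkhd1l1, Rspo1, Gpm6a, Lrrn4 and Aldh1a2, and the groups did not overlap in any of them. Over all genes, 33.3% had groups that did not overlap.

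**Figure D1:**
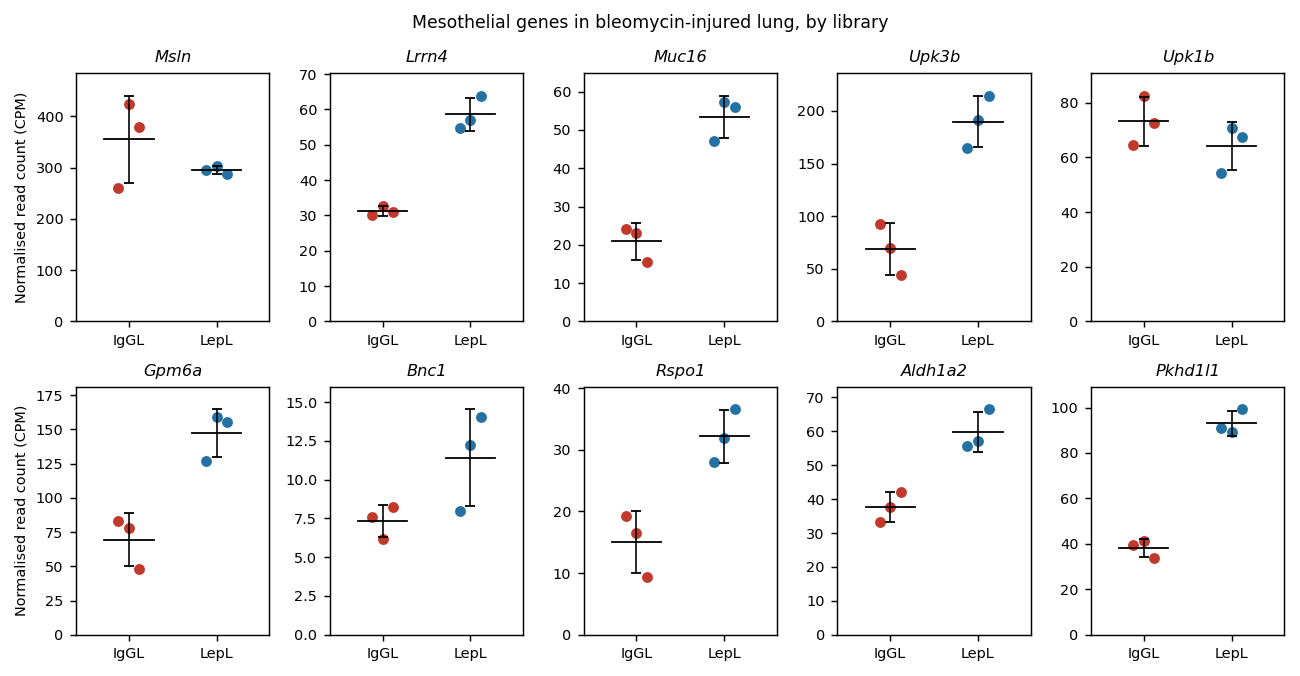
Normalised read counts (CPM, vertical axes, each starting at 0) of the 10 genes in the 3 IgGL (red) and 3 LepL (blue) lung libraries. Points are libraries, horizontal lines are means and bars are SD (n = 3). In 7 panels all LepL points lie above all IgGL points, as for Upk3b with 44.3 to 92.8 CPM in IgGL and 165 to 214 CPM in LepL, while the points of Msln, Upk1b and Bnc1 overlap.

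Upk3b (chr5:136067350-136075341, GRCm39, plus strand) had 92.8, 69.4 and 44.3 CPM in the IgGL libraries and 165, 191 and 214 CPM in the LepL libraries. Its lowest LepL library lay well above its highest IgGL library, although the IgGL libraries spread over a wide range. The log2 fold change was 1.46 ± 0.24 (SE, n = 3 per group), with an adjusted p of 0.0327 in edgeR. Upk1b (chr16:38593546-38620690, minus strand), a tetraspanin partner of other uroplakins, was not called. It had 64.6, 82.5 and 72.8 CPM in IgGL and 54.4, 70.9 and 67.3 CPM in LepL, with overlapping groups. Its log2 fold change was -0.19 ± 0.13, with an adjusted p of 0.390 in edgeR.

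Muc16 (chr9:18406751-18585826, minus strand) had 24.2, 23.2 and 15.4 CPM in IgGL and 47.0, 57.2 and 55.9 CPM in LepL. Every LepL library was higher than every IgGL library, and the log2 fold change was 1.35 ± 0.18 (adjusted p = 0.0327, edgeR). Msln (chr17:25967587-25973352, minus strand), its binding partner, had 260, 425 and 380 CPM in IgGL and 296, 302 and 287 CPM in LepL. The LepL libraries lay close together inside the wider range of IgGL, and the log2 fold change was -0.27 ± 0.17 (adjusted p = 0.349, edgeR). On the deposited FPKM scale, which divides by gene length, the level of Upk3b relative to Msln in the same library was 0.184 ± 0.111 (SD, n = 3) in IgGL and 0.559 ± 0.0823 in LepL.

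Pkhd1l1 (chr15:44320890-44464765, plus strand), a large relative of the polycystic kidney disease protein fibrocystin, had 39.5, 41.2 and 33.7 CPM in IgGL and 91.0, 89.1 and 99.3 CPM in LepL. Its spread within each group was small beside the gap between them. The log2 fold change was 1.29 ± 0.11, with an adjusted p of 0.0193 in edgeR, the smallest among the 10 genes. Lrrn4 (chr2:132710225-132722811, minus strand), a leucine-rich repeat protein, had 29.998, 32.7 and 31.0 CPM in IgGL and 54.8, 57.1 and 63.9 CPM in LepL. It was the evenest of the 10 in IgGL, and its log2 fold change was 0.91 ± 0.10 (adjusted p = 0.0327, edgeR). Gpm6a (chr8:55407878-55513906, plus strand), a glycoprotein known best from neurons, had 83.0, 77.8 and 47.7 CPM in IgGL and 127, 159 and 155 CPM in LepL. Its groups did not overlap, and its log2 fold change was 1.08 ± 0.20 (adjusted p = 0.0344, edgeR).

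The secreted ligand Rspo1 (chr4:124880223-124902892, plus strand) had 19.2, 16.6 and 9.35 CPM in IgGL and 28.01, 31.9 and 36.6 CPM in LepL. The IgGL library with the lowest Rspo1 was also the lowest for Upk3b, Muc16, Gpm6a and Pkhd1l1. The log2 fold change of Rspo1 was 1.10 ± 0.24, with an adjusted p of 0.0444 in edgeR. Aldh1a2 (chr9:71123071-71203525, plus strand) had 33.2, 37.8 and 42.2 CPM in IgGL and 55.7, 57.3 and 66.6 CPM in LepL, and its highest IgGL library was the one lowest for Rspo1. Its log2 fold change was 0.67 ± 0.12 (adjusted p = 0.0350, edgeR). Bnc1 (chr7:81616401-81642055, minus strand) had 7.56, 6.19 and 8.25 CPM in IgGL and 7.97, 12.2 and 14.1 CPM in LepL. One LepL library lay within the range of IgGL, and the log2 fold change of 0.64 ± 0.24 was not called (adjusted p = 0.129, edgeR).

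The count of 7 in the lung depended on single libraries and on the model. With the replicate number as a block edgeR called 0 of the 10, and the 7 genes had adjusted p-values of 0.0637 to 0.0927. With library-size scaling alone it called 6, and Rspo1 had an adjusted p of 0.0501. With replicate 2 of IgGL, replicate 2 of LepL or replicate 3 of LepL left out, edgeR called 0 of the 10 genes, while 7 had an unadjusted p under 0.05 and a positive fold change, and 0 genes of the whole table were called. Without IgGL replicate 3 it called 2 of the 10, where 3 of all 20472 genes tested were called higher. Without LepL replicate 1 it called 2, where 18 of 20508 were. Without IgGL replicate 1 it called 7, but 1937 of 20435 genes were called higher in that fit, against 349 of 19617 with all 6 libraries. In each of these fits 8 of the 10 fold changes were positive, as with all 6 libraries. DESeq2's Wald test on all 6 libraries called 7. The shares over all genes in the DESeq2, block and library-size fits are not given here.

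Of 18 further mesothelial genes, 16 were tested in the lung, 3 were called higher in LepL and 0 lower, with a median log2 fold change of -0.0082. The 3 were Cldn15, a claudin of tight junctions (1.39 ± 0.27, adjusted p = 0.0365), Rarres2, which encodes the chemoattractant chemerin (0.95 ± 0.20, adjusted p = 0.0398), and Nkain4 (0.91 ± 0.19, adjusted p = 0.0405, all by edgeR). Wt1, a transcription factor of mesothelium, had means of 9.18 CPM in IgGL and 11.7 CPM in LepL and was not called (adjusted p = 0.289). The keratins Krt7, Krt8, Krt18 and Krt19, which mesothelium shares with other epithelia, had log2 fold changes from -0.50 to -0.31 and were not called. The lubricant gene Prg4 (-0.50, adjusted p = 0.413) and Anxa8 (-0.78, adjusted p = 0.0754) were not called either.

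Genes of other cell types moved beside them. Of 6 adipocyte markers tested, Adipoq (log2 fold change 1.51) and Cidec (1.29) were called higher in LepL, and the list's summed level was 63.4 to 137 CPM in IgGL and 179 to 263 CPM in LepL. Of 6 airway markers, Scgb3a2 and Cyp2f2 were called higher, with sums of 7377 to 9314 CPM and 12207 to 23792 CPM. None of 6 alveolar type 1 markers was called, but their sum was 2899.9 to 4073 CPM in IgGL and 4738 to 5144 CPM in LepL. Of 10 fibroblast markers 5 were called lower, with sums of 7338 to 8438 CPM and 3265 to 4538 CPM. No marker of the adipocyte, airway, alveolar type 1 or fibroblast lists was at 0 in either group. The part of these shifts in the members' change was not tested. Of the other lists, 1 of 8 urothelial markers (Upk2) was higher, 1 of 6 lymphatic endothelial markers (Flt4) was lower, and none of 6 peripheral nerve, 5 serosal macrophage, 5 injured tubule or 2 adrenal cortex markers was called.

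The pathways that 2 of the members belong to were read from lists of their other genes. Of 14 retinoic acid pathway genes tested in the lung, Rbp4, a retinol carrier, was called higher (1.13 ± 0.26, adjusted p = 0.0464) and Cyp26b1, which breaks retinoic acid down, was called lower (-1.78 ± 0.24, adjusted p = 0.0327, both by edgeR). The remaining 12, with the synthesizing enzymes Aldh1a1 and Aldh1a3 and the receptors Rara, Rarb, Rarg and Rxra among them, were not called. None of 8 other genes of R-spondin signaling was called. Rspo3 had means of 6.92 CPM in IgGL and 1.86 CPM in LepL, against 15.04 and 32.2 CPM for Rspo1, with a log2 fold change of -1.89 ± 0.52 (adjusted p = 0.0669, edgeR).

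The comparison of IgGK with WTK sets folic acid with control IgG against vehicle in the kidney. If WTK mice were given no antibody, folic acid and the IgG injections cannot be told apart. Of the 10 genes, 9 passed the filter there, 6 were called higher in IgGK and 1 lower. Over all 19593 genes tested, 21.7% were called higher and 15.6% lower, and the groups did not overlap in 62.6% of all genes and in 8 of the 9 members. The members' median log2 fold change was 1.41, against 0.041 over all genes. Bnc1 did not pass the filter in kidney: its counts summed to 10 in WTK, 21 in IgGK and 36 in LepK over the 3 libraries of each.

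**Figure D2:**
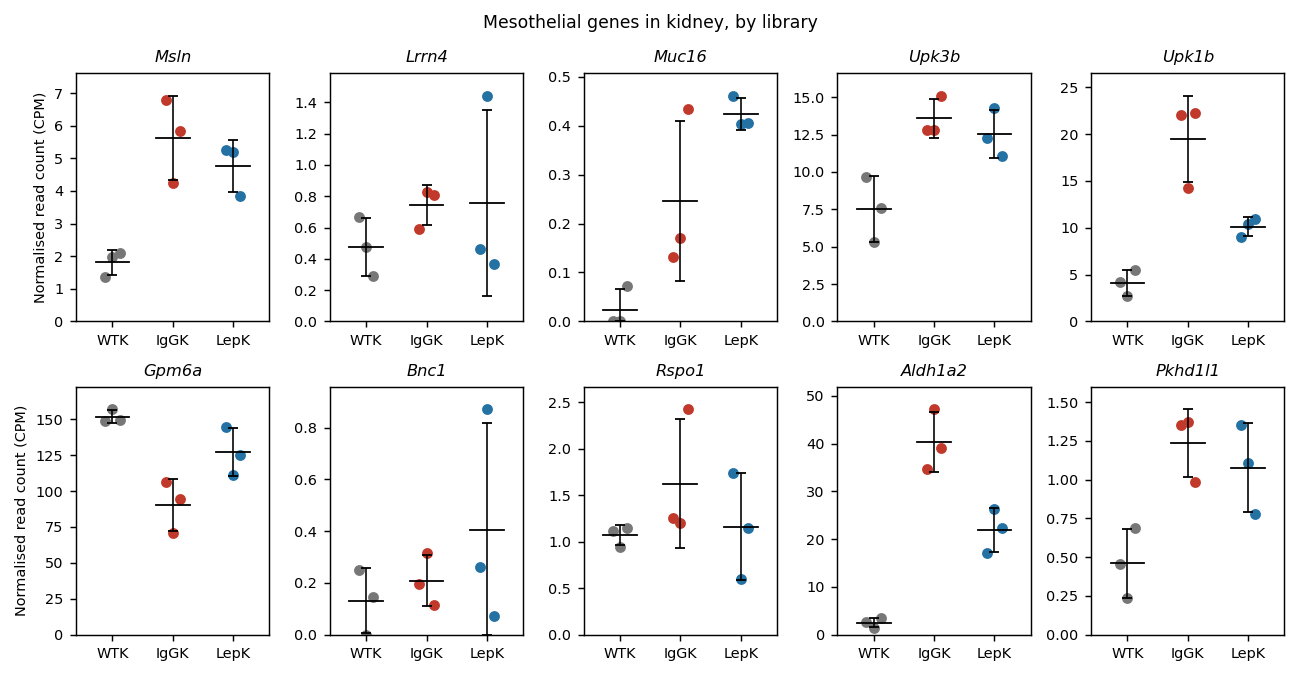
Normalised read counts (CPM, vertical axes, each starting at 0) of the 10 genes in the 3 WTK (grey), 3 IgGK (red) and 3 LepK (blue) kidney libraries. Points are libraries, horizontal lines are means and bars are SD (n = 3, cut at 0). Aldh1a2 goes from 1.50 to 3.46 CPM in WTK to 34.7 to 47.2 CPM in IgGK and 17.1 to 26.3 CPM in LepK, whereas Gpm6a is highest in WTK and most other panels stay at a few CPM.

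Aldh1a2 moved most, relative to its error. It had 2.62, 1.50 and 3.46 CPM in WTK and 34.7, 47.2 and 39.1 CPM in IgGK, and every injured kidney was far above every vehicle kidney. The log2 fold change was 3.99 ± 0.24, with an adjusted p of 9.01e-08 in edgeR. Upk1b had 4.20, 2.72 and 5.52 CPM in WTK and 22.0, 14.2 and 22.3 CPM in IgGK. Its groups did not overlap, and its log2 fold change was 2.23 ± 0.24 (adjusted p = 5.48e-06, edgeR). Upk3b had 9.68, 5.29 and 7.57 CPM in WTK and 12.8, 12.8 and 15.1 CPM in IgGK, a smaller shift of 0.86 ± 0.19 on the log2 scale (adjusted p = 0.00197, edgeR).

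The other members that were called higher had lower levels. Msln had 1.37, 1.97 and 2.09 CPM in WTK and 6.79, 4.23 and 5.84 CPM in IgGK, with a log2 fold change of 1.63 ± 0.26 (adjusted p = 1.55e-04, edgeR). Pkhd1l1 had 0.457, 0.237 and 0.685 CPM in WTK and 1.35, 1.37 and 0.983 CPM in IgGK, with a log2 fold change of 1.41 ± 0.45 (adjusted p = 0.0186, edgeR). Its counts were 11, 6 and 19 in WTK, so it passed the filter on low counts only through the folic acid kidneys, where it was higher. Without that filter its log2 fold change was 1.42 (adjusted p = 0.0224, edgeR). Muc16 rested on 2 counts in WTK, all of them in 1 library, and 25 counts in IgGK. Its rate was 9.65 times higher in IgGK with a 95% interval of 2.41 to 84.1 that covers counting error only, and its adjusted p was 0.0222 in edgeR. It passed the filter on low counts only through the LepK libraries (14, 12 and 11 counts), so with IgGK and WTK alone in the fit it was not tested and 5 genes were called higher. Without the 2 IgGK libraries with high adrenal cortex markers, 5 of the 6 genes were still called and Pkhd1l1 was not (1.08, adjusted p = 0.251, edgeR). Single libraries decided the calls of these low genes. Muc16 was not called without WTK replicate 1 (adjusted p = 0.0806), WTK replicate 2 (0.0835) or IgGK replicate 3 (0.111), and Pkhd1l1 was not called without WTK replicate 2 (0.0661), IgGK replicate 1 (0.0513) or IgGK replicate 2 (0.0535, all by edgeR).

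Gpm6a went the other way. It had 149, 157 and 149.7 CPM in WTK and 106, 70.6 and 94.2 CPM in IgGK, and its log2 fold change was -0.75 ± 0.13 (adjusted p = 3.35e-04, edgeR). With library-size scaling alone the log2 fold change was -0.31 and it was not called. Lrrn4, at 0.289 to 0.665 CPM in WTK and 0.594 to 0.829 CPM in IgGK, was not called (0.65 ± 0.58, adjusted p = 0.369, edgeR). Rspo1, at 0.948 to 1.15 CPM in WTK and 1.20 to 2.43 CPM in IgGK, was not called either (0.60 ± 0.43, adjusted p = 0.266, edgeR). With library-size scaling alone Rspo1 was called (1.04, adjusted p = 0.0489), which made 7 genes higher and 0 lower.

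Marker lists of several cell types shifted in the same comparison. All 8 urothelial markers were called higher in IgGK, with a median log2 fold change of 2.29 and a summed level of 22.6 to 27.2 CPM in WTK and 98.5 to 126 CPM in IgGK. Among them were Upk1a (1.96 ± 0.21), Upk2 (2.29 ± 0.26) and Upk3a (2.36 ± 0.22), which encode the uroplakins of the urothelial plaque. All 5 injured tubule markers, 8 of 10 fibroblast markers and all 6 adrenal cortex markers tested were higher. Krt20 (6.50 ± 0.19) is in both the urothelial and the injured tubule list, so each comparison counts it in both. Of 7 adipocyte markers 6 were higher and Lep was lower, and of 6 podocyte markers 3 were higher. Of 4 serosal macrophage markers, Adgre1, Cd68 and Ptprc, which other leukocytes also make, were higher and Icam2 was lower. All 3 airway markers tested were called, 2 higher and 1 lower. Of 6 lymphatic endothelial markers 1 was higher and 1 lower, and 1 of 5 alveolar type 1 and 1 of 4 peripheral nerve markers were higher. No urothelial, fibroblast or injured tubule marker was at 0 in WTK or IgGK. The part of these cells in the members' rise was not tested.

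Of the 18 further mesothelial genes, 16 were tested in kidney, 9 were called higher in IgGK and 0 lower. They were Krt19 (log2 fold change 3.39), Pdpn (2.98), Gata6 (2.83), Anxa8 (2.53), Krt18 (1.95), Prg4 (1.16), Wt1 (0.99), Slpi (0.87) and Krt7 (0.66). Podocytes express Wt1 and Pdpn too, and injured tubules and urothelium express keratins. Calb2 and Itln1, which are markers of mesothelium in mouse or human, did not pass the filter in any kidney comparison, with Calb2 at 0 in all IgGK and LepK libraries and Itln1 at 0 in all WTK and LepK libraries.

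Of 15 other genes of the retinoic acid pathway, 7 were called higher in IgGK, 2 lower and 6 were not called, beside the 21.7% higher and 15.6% lower over all genes. Stra6, the retinol uptake receptor, had means of 1.06 CPM in WTK and 87.2 CPM in IgGK (6.38 ± 0.28, adjusted p = 1.33e-08). The enzymes Aldh1a3 (1.85 ± 0.31) and Aldh1a1 (1.79 ± 0.31) were higher as well, as were Rarg, Rbp4 and Crabp1. Cyp26b1 (-1.62 ± 0.30) and the receptor Rxra (-0.86 ± 0.07) were lower. Around Rspo1, 2 of 6 genes of R-spondin signaling tested were called higher, Rspo3 (1.03 ± 0.38, adjusted p = 0.0356) and Rnf43 (0.58 ± 0.12, adjusted p = 0.00133, all by edgeR).

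The comparison of LepK with IgGK asks what the antibody changed in the injured kidney, and it uses the same IgGK libraries as the comparison before. Of the 9 genes tested, 2 were called lower in LepK and 0 higher. Over all genes, 4.38% were called higher and 5.99% lower, and the members' median log2 fold change was -0.19, against -0.012 over all genes. The groups did not overlap in 3 of the 9 genes and in 37.4% of all genes. At an unadjusted p under 0.05, 1 gene was higher and 2 were lower, and DESeq2 also called 0 higher and 2 lower.

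**Figure D3:**
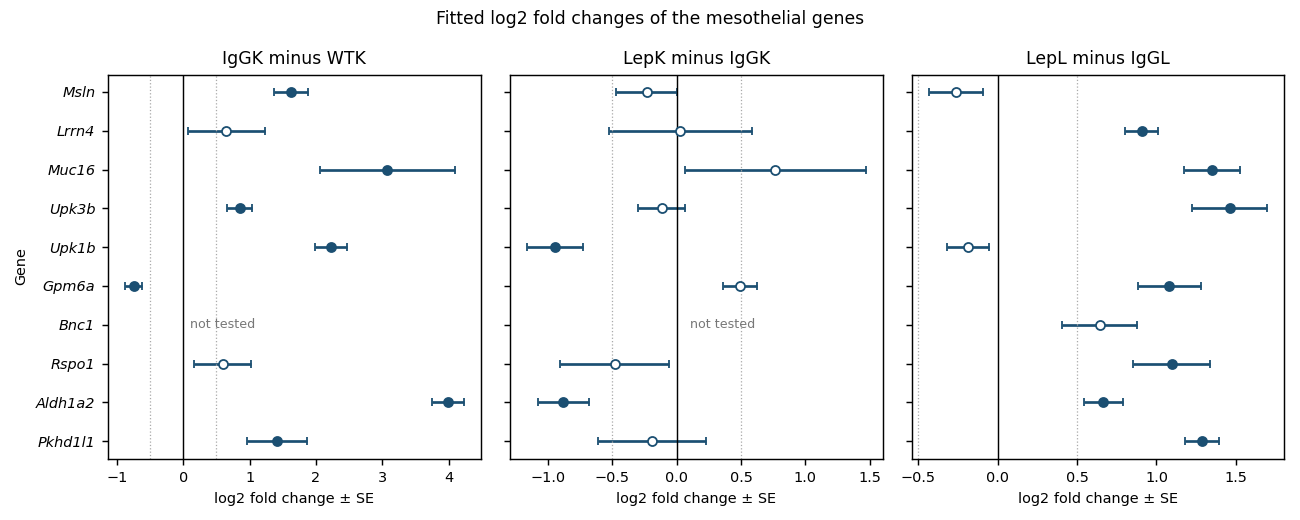
Fitted log2 fold changes (horizontal axes) of the 10 genes in 3 comparisons, with bars of 1 SE. Filled points were called, open points were not, and dotted lines mark the threshold of 0.5 in either direction. The lung panel on the right holds 7 filled points above 0 and the middle panel, for the antibody in kidney, holds 2 filled points below 0, those of Upk1b and Aldh1a2.

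Aldh1a2 had 17.1, 26.3 and 22.3 CPM in LepK against 34.7, 47.2 and 39.1 CPM in IgGK. The highest LepK library lay below the lowest IgGK library, and the log2 fold change was -0.88 ± 0.20 (adjusted p = 0.00808, edgeR). Upk1b had 9.02, 10.4 and 10.9 CPM in LepK against 22.0, 14.2 and 22.3 CPM in IgGK. Its groups did not overlap, and its log2 fold change was -0.95 ± 0.22 (adjusted p = 0.00971, edgeR). Without the 2 IgGK libraries with high adrenal cortex markers only Upk1b was called, and Aldh1a2 had a log2 fold change of -0.83 with an adjusted p of 0.125 in edgeR.

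Gpm6a had 145, 111 and 125 CPM in LepK, above all 3 IgGK libraries. Its log2 fold change of 0.49 ± 0.13 lay just under the threshold of 0.5, with an adjusted p of 0.0185 in edgeR, and it was called without IgGK replicate 1 (0.64), IgGK replicate 3 (0.53), LepK replicate 2 (0.58) or LepK replicate 3 (0.50). Msln was 3.84 to 5.27 CPM in LepK and 4.23 to 6.79 CPM in IgGK, with a log2 fold change of -0.23 ± 0.24 (adjusted p = 0.549, edgeR). Upk3b (-0.12 ± 0.18), Pkhd1l1 (-0.19 ± 0.42), Rspo1 (-0.48 ± 0.43), Lrrn4 (0.03 ± 0.55) and Muc16 (0.77 ± 0.70) were not called, and the groups overlapped in each of them. For Muc16, 25 counts in IgGK and 37 in LepK gave a rate ratio of 1.69 with a 95% counting interval of 0.993 to 2.94.

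Marker lists moved here too. Of 8 urothelial markers 6 were called lower in LepK (median over the list -0.70 on the log2 scale), with a summed level of 67.1 to 89.5 CPM, and the uroplakins Upk1a (-0.67 ± 0.19), Upk2 (-1.06 ± 0.24) and Upk3a (-0.73 ± 0.20) were among them. Of 10 fibroblast markers 7 were lower and 0 higher, and all 5 injured tubule markers and 5 of 6 adrenal cortex markers were lower. Of 4 serosal macrophage markers, Adgre1, Cd68 and Ptprc, which other leukocytes also make, were lower and Icam2 was not called (0.44 ± 0.17). Of 16 further mesothelial genes, Krt19, Pdpn, Gata6 and Anxa8 were lower and Tmem151a was higher. Among the retinoic acid pathway genes Crabp2 was higher, and none of 6 genes of R-spondin signaling was called. One marker each was called lower in the adipocyte (Adipoq of 7) and peripheral nerve (Sox10 of 4) lists, 1 of 6 lymphatic endothelial markers was higher (Reln), and none of 5 alveolar type 1 or 3 airway markers was called. The part of these cells in the fall of Upk1b and Aldh1a2 was not tested.

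**Figure D4:**
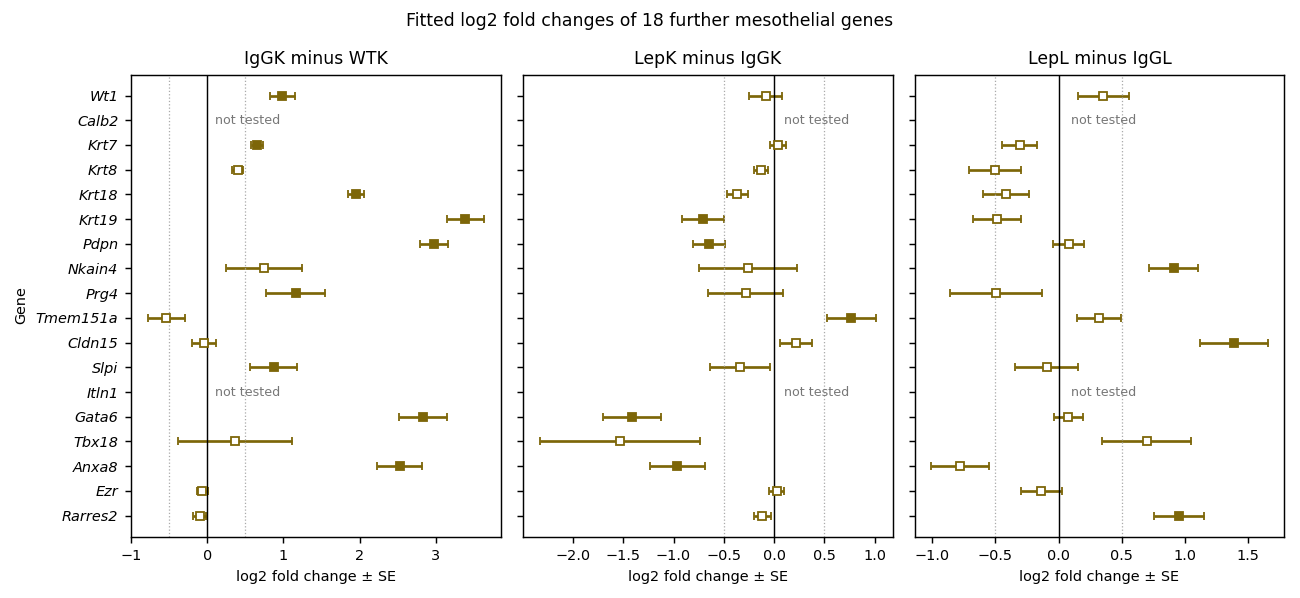
Fitted log2 fold changes (horizontal axes) of 18 further genes of mesothelium in the same 3 comparisons, with bars of 1 SE. Filled squares were called and open ones were not. The left panel, for IgGK against WTK, holds 9 filled squares above 0, and the right panel, for the antibody in lung, holds 3, those of Nkain4, Cldn15 and Rarres2.

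The comparison of LepK with WTK sets folic acid with LepAb against vehicle, and it shares its libraries with both kidney comparisons above. Of 9 genes tested, 5 were called higher in LepK and 0 lower, against 15.2% and 7.30% of all genes. The members' median log2 fold change was 1.22, against 0.031 over all genes. Aldh1a2 (3.11 ± 0.24, adjusted p = 3.31e-06), Msln (1.39 ± 0.26, adjusted p = 0.00108), Upk1b (1.28 ± 0.24, adjusted p = 0.00106) and Upk3b (0.74 ± 0.19, adjusted p = 0.00822) were the well counted ones, by edgeR. Muc16 was the remaining one, with 37 counts in LepK against 2 in WTK, a rate ratio of 16.3 with a 95% counting interval of 4.22 to 140, and it passed the filter only through the LepK libraries, where it was higher. Pkhd1l1 was just over the threshold (1.22 ± 0.45, adjusted p = 0.0509), and passed it without WTK replicate 3 (adjusted p = 0.0302), without LepK replicate 3 (0.0489) or with library-size scaling alone (0.0198, edgeR). Pkhd1l1 passed the filter on low counts only through the folic acid kidneys, where it was higher. Gpm6a was not called (-0.26 ± 0.13, adjusted p = 0.140, edgeR). All 8 urothelial markers and 7 of 16 further mesothelial genes were called higher in LepK than in WTK. So were all 5 injured tubule markers, 8 of 10 fibroblast markers, 3 of 4 serosal macrophage markers and 3 of 7 adipocyte markers, and their part in the members' values was not tested. Those of the macrophage list were Adgre1, Cd68 and Ptprc, which other leukocytes also make.

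The difference between the kidney and lung effects of the antibody was tested in 1 fit of the 12 libraries from injured organs. Organ, injury, day and the antibody schedule cannot be told apart there. The difference was called at an adjusted p under 0.05 with no fold threshold. Of the 21488 genes tested, 3.51% passed with a more positive effect in kidney and 3.62% with a more negative one. Of the 10 members, 3 were called, each with a more negative effect in kidney. Upk3b differed by -1.55 ± 0.30 on the log2 scale (adjusted p = 0.0154), Aldh1a2 by -1.52 ± 0.22 (adjusted p = 0.00588) and Pkhd1l1 by -1.44 ± 0.25 (adjusted p = 0.0105, edgeR). Aldh1a2 was the gene whose effect was called in both organs and in opposite directions, -0.88 in kidney and 0.67 in lung. Upk1b (-0.73 ± 0.24, adjusted p = 0.0779) and Rspo1 (-1.55 ± 0.51, adjusted p = 0.0814) did not pass, and neither did Lrrn4, Muc16, Gpm6a, Msln or Bnc1. Upk1b passed without IgGK replicate 2 (adjusted p = 0.0381), Rspo1 without IgGL replicate 1 (0.0349) and Lrrn4 without LepK replicate 2 (0.0141, all by edgeR). Without the 2 IgGK libraries with high adrenal cortex markers edgeR called 0 of the 10, with -1.71 for Upk3b (adjusted p = 0.121), -1.48 for Aldh1a2 (adjusted p = 0.0687) and -1.12 for Pkhd1l1 (adjusted p = 0.204).

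**Figure D5:**
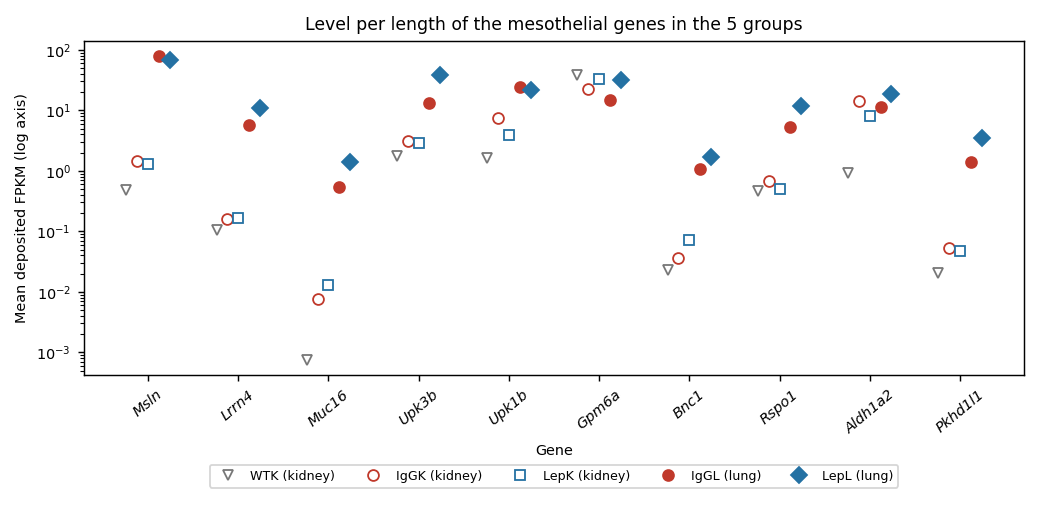
Group means (n = 3) of the deposited FPKM values of the 10 genes on a log axis, with open symbols for kidney and filled symbols for lung. Msln reaches 79.2 FPKM in IgGL and 0.489 FPKM in WTK, while the symbols of Gpm6a and Aldh1a2 from both organs lie close together.

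Levels between genes and organs were compared on the deposited FPKM scale. For 8 of the 10 genes every lung library was above every kidney library. The share of all genes set apart in this way was not computed. The members were chosen with these values known, so the count only describes them. Msln was 79.2 ± 18.2 FPKM (SD, n = 3) in IgGL, 67.5 ± 1.62 in LepL, 1.48 ± 0.343 in IgGK, 1.28 ± 0.218 in LepK and 0.489 ± 0.106 in WTK, the highest of the members in IgGL lungs. The ranges of IgGL and LepL overlapped, as did those of IgGK and LepK. Upk3b was 37.7 ± 4.85 FPKM in LepL, 13.4 ± 4.94 in IgGL, 3.10 ± 0.289 in IgGK, 2.91 ± 0.380 in LepK and 1.76 ± 0.511 in WTK, with overlap between IgGK and LepK only. Upk1b was 24.0 ± 2.75 FPKM in IgGL, 21.5 ± 2.86 in LepL, 7.53 ± 1.77 in IgGK, 3.97 ± 0.377 in LepK and 1.64 ± 0.555 in WTK, with overlap between the lung groups only.

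Several members had low levels in kidney and higher ones in lung. Lrrn4 was 11.05 ± 0.896 FPKM in LepL and 5.76 ± 0.227 in IgGL, and did not exceed 0.318 in any kidney library. Pkhd1l1 was 3.52 ± 0.211 FPKM in LepL and 1.41 ± 0.160 in IgGL, and did not exceed 0.0599 in kidney. Rspo1 was 11.6 ± 1.55 FPKM in LepL and 5.33 ± 1.88 in IgGL, and 0.255 to 1.01 in kidney. Bnc1 was 1.71 ± 0.467 FPKM in LepL and 1.07 ± 0.149 in IgGL, and Muc16 1.42 ± 0.144 and 0.545 ± 0.132, while both were listed at 0 in some WTK libraries. The IgGL level was 53.6 times the IgGK level for Msln, 35.7 times for Lrrn4 and 26.2 times for Pkhd1l1.

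Gpm6a and Aldh1a2 did not follow this pattern, since their levels in some kidney groups reached those in lung, so the label of mesothelial gene does not set the organs apart for them. Gpm6a was highest in vehicle kidney, with 39.04 ± 1.21 FPKM in WTK, 32.4 ± 4.39 in LepK, 32.0 ± 3.78 in LepL, 22.7 ± 4.59 in IgGK and 14.9 ± 4.25 in IgGL. The ranges of LepK and LepL overlapped, as did those of IgGK and IgGL. Aldh1a2 was 18.5 ± 1.83 FPKM in LepL, 14.4 ± 2.25 in IgGK, 11.4 ± 1.17 in IgGL, 7.93 ± 1.65 in LepK and 0.923 ± 0.361 in WTK, and only IgGK and IgGL overlapped among neighbours in that order. In lung the members' defining gene Msln was at 260 to 425 CPM in IgGL, and of the further mesothelial genes Calb2 and Itln1 were too low to be tested in either organ.

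Over the deviations of all 15 libraries from their group means, the genes most like the mean of the 9 members tested in both organs were Riox1 (Pearson r = 0.91), Wars (0.88), Cyp3a13 (0.88), Zfp664 (0.86), Gm49767, Gm9752, Spg20, Creb1, Cdh1 and Gm43595 (0.84 to 0.85). These r are a description over points that share depth and scaling, and the genes are the highest of 17459. The members themselves did not all vary together. The r of a member to the mean of the others ran from -0.18 for Lrrn4 to 0.66 for Upk3b. In lung libraries alone it was 0.91 for Muc16, 0.89 for Gpm6a, 0.88 for Pkhd1l1, 0.84 for Rspo1 and 0.72 for Upk3b. It was 0.51 for Lrrn4 and 0.36 for Upk1b there, but -0.29 for Msln and -0.30 for Aldh1a2. In kidney libraries alone it ran from -0.25 for Lrrn4 to 0.68 for Upk3b.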

How the data were processed

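RNA was extracted from whole kidney or lung tissue, and per the labels libraries were made by poly(A) enrichment without strand (non-directional). The authors deposited whole-number read counts per gene, not normalized, from the sequencing provider. They also deposited FPKM values, which scale counts by depth and gene length. The submitters' processing notes name GRCm39 (mm39) and DESeq2. The aligner and the counting tool are not given in the sources used here. Columns with the authors' own fold changes, p-values and group means were not used.

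Samples were grouped by title. A description line that names a column disagrees with the titles and was not used, and a suffix in the header of 1 LepL column (replicate 3) was ignored. The 10 genes and all gene lists were chosen with earlier results of these data known.

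Counts were analysed across all genes with R 4.3.3 and edgeR 4.0.16 (filterByExpr with a minimum count of 10 and a minimum total of 15, TMM factors, glmQLFit, glmQLFTest), with kidney and lung fitted apart. SE values were derived as the absolute log2 fold change divided by the root of the F statistic. Adjusted p-values are Benjamini-Hochberg values from edgeR over all genes tested. Rate ratios of low counts have exact 95% intervals. The procedure was tested on simulated counts. Replicate counts differed by a chi-square of 6.73 or more per gene, above sampling noise. The alternatives were RLE and library-size scaling, DESeq2 1.42.0, other filters, thresholds and fits, a replicate block and each library left out. Leaving out the 2 IgGK libraries with high adrenal cortex markers was added after seeing the data.

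All 10 genes are named. From the lists (further mesothelial, retinoic acid pathway, R-spondin signaling, urothelial, podocyte, fibroblast, adipocyte, adrenal cortex, lymphatic endothelial, alveolar type 1, airway, peripheral nerve, serosal macrophage and injured tubule genes) called genes may be named, and the 2 with the highest mean. Calb2, Itln1, Rara and Rarb were named after their values were seen. The 10 genes most like the members are those with the highest Pearson r between deviations from group means of log2 CPM (prior count of 2). Reads of genes overlapping Rspo1, Muc16, Gpm6a, Bnc1 and Aldh1a2 cannot be told apart by strand, and those genes held at most 111 counts in all libraries. Some results of single list genes are not reported here.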

Additional observations from a re-analysis of the deposited data

Results flagged for a closer look

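The antibody effect differed between the organs for 3 of the 10 genes, by a test of the difference itself over the 12 libraries from injured organs (edgeR, adjusted p under 0.05). The kidney effect minus the lung effect was -1.55 on the log2 scale for Upk3b, -1.52 for Aldh1a2 and -1.44 for Pkhd1l1. Leaving out each of the 12 libraries in turn gave -1.82 to -1.34 for Upk3b, -1.67 to -1.40 for Aldh1a2 and -1.67 to -1.26 for Pkhd1l1, with each of them still called. Organ, injury, day and the antibody schedule cannot be told apart in this difference. Adrenal cortex markers were high in 2 IgGK libraries. The fit without those libraries, given above, rests on a single IgGK library, and the 3 differences kept their sign in it. The part of those markers in the difference was not tested. Groups of 3 libraries are too small for a test of single libraries that stand apart.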

How the results depend on the processing

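Of the counts of called genes recomputed under the alternatives, 123 stayed within 1.5 times the value with the chosen settings and 18 did not. Of the values of single genes, 639 kept their direction and call, 58 lost a call, 18 gained one and 18 changed sign. In LepL against IgGL, the count of genes called higher was 0 with the replicate number as a block and 0 to 7 with each library left out. Over the whole table, 0 to 1937 genes were called higher with each library left out. Libraries of the same number had correlations of -0.055 to 0.18, and in no comparison over 0.1 in every pair. They were -0.055 to 0.071 in lung, and 0.182 and 0.165 for pairs 1 and 2 of LepK against IgGK. These values cannot settle whether the numbers pair the samples. With the block the 7 genes had adjusted p-values of 0.0637 to 0.0927 in edgeR. The block changed no other count by over 1.5 times. In IgGK against WTK, the count of genes called lower was 0 with library-size scaling and 0 with an absolute log2 fold change over 1. In LepK against IgGK, the count called higher was 1 without a fold-change threshold and 0 to 1 with each library left out. The count called lower was 0 with an absolute log2 fold change over 1, and 1 without the IgGK libraries with high adrenal cortex markers. The count of genes whose antibody effect differed between organs was 5 with library-size scaling, 6 without a low-count filter and 0 without those IgGK libraries. Signs changed only for values that were not called. In LepK against IgGK, Lrrn4 was -0.14 with library-size scaling, -0.15 with the block, -0.084 without those IgGK libraries and -0.83 to 0.35 with each library left out, and Muc16 was -0.025 and Pkhd1l1 0.14 without those IgGK libraries. In LepK against WTK, Gpm6a was 8.41e-04 with library-size scaling, and with each library left out Rspo1 was -0.30 to 0.43 and Lrrn4 -0.18 to 1.001. The kidney minus lung difference of Msln was -0.19 with library-size scaling, -7.97e-04 without those IgGK libraries and -0.11 to 0.25 with each library left out, that of Muc16 -0.84 to 0.13 and that of Bnc1 -0.88 to 0.81. The cause of these changes was not tested. With 1 library left in IgGK, that library is assumed to vary like the others. In kidney the depth limits Muc16 and Bnc1, with at most 37 counts in a group.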
